A study of Homo sapiens with 4 samples.

Results

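Aldo-keto reductases are NADPH-dependent enzymes that reduce aldehydes and ketones, among them steroids, prostaglandins, retinaldehyde and the reactive aldehydes of lipid oxidation. Several of their genes are known targets of NRF2, the transcription factor of the response to electrophiles, and are often abundant in squamous carcinoma cells. A family of 9 genes was followed here: AKR1C1, AKR1C2, AKR1C3 and AKR1C4, the steroid and prostaglandin reductases; AKR1B1 and AKR1B10, which act on sugars, retinaldehyde and lipid aldehydes; AKR1A1, a general aldehyde reductase; and AKR7A2 and AKR7A3, the aflatoxin aldehyde reductases. They were chosen by name with their CAPE minus DMSO values on these arrays known, and all their probe sets of a single gene symbol were read. AKR1C1 had 2 such probe sets, 6 other genes had 1 each, and AKR1A1 and AKR1B1 had none (0) and were not analysed here. That left 7 genes in 8 probe sets, out of 18323 genes in the series. Dim genes were set aside with a filter at the 25th percentile of the mean signal, 0.997 on the log2 scale, which kept 6 of the 7, all but AKR1C4, among 15194 genes.

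RNA came from HK1EBV and HK1, cell lines derived from nasopharyngeal carcinoma. HK1EBV was taken from its name to be HK1 carrying Epstein-Barr virus, and the labels do not describe the infection or say whether it is a single clone. Each line had been kept for 24 h with 110 µM caffeic acid phenethyl ester (CAPE), a propolis compound known to inhibit NF-κB, or with 0.1% dimethyl sulfoxide (DMSO). The groups were HK1EBV with CAPE, HK1EBV with DMSO, HK1 with CAPE and HK1 with DMSO, each on 1 array, so no group had a replicate.

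Values are those of robust multi-array averaging (RMA), taken as log2, and a difference of 1 is 2-fold. The array medians lay between 2.23 and 2.27. Of 8 epithelial markers 6 were measured, and all 6 stood above the filter with array means between 2.57 for KRT8 and 9.83 for KRT5. Above the filter were also 3 of 5 fibroblast, 2 of 4 leukocyte and 2 of 4 endothelial markers measured, the highest of them COL1A1 at 3.52, while DCN, LUM, PTPRC, CD3E, PECAM1 and KDR lay under it. The family was chosen with its CAPE differences known, so these are given as a description, with no test. The choice was made for the CAPE differences and not for the difference between the lines, which was tested. Earlier results of these data were known at that choice, so the line test is not fully independent of it. The labels do not say whether the arrays came from separate cultures, so a difference between arrays may be technical. With 1 array a group, the p-values hold no spread between repeat arrays. Their error is how far the CAPE difference was unequal in the lines, pooled with that of all genes. A real difference between the lines in the response to CAPE would count as error.

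AKR1C1, AKR1C2, AKR1C3 and AKR1C4 lie together on chromosome 10. With CAPE the first 3 stood higher together, while AKR1C4 lay under the filter, where a difference may not show. For that reason the promoter windows of these genes are shown, from 250 bases before to 50 bases after each annotated start. They are given 5′ to 3′ on the strand of the gene, from RefSeq (GRCh38.p14), and capitals mark matches to the CCAAT box, which read ATTGG where the box is on the opposite strand. The windows are chr10:4963165-4963464 on the plus strand for AKR1C1, chr10:5003808-5004107 on the minus strand for AKR1C2, chr10:5048531-5048830 and chr10:5094164-5094463 on the plus strand for 2 starts of AKR1C3, and chr10:5196587-5196886 on the plus strand for AKR1C4.
AKR1C1: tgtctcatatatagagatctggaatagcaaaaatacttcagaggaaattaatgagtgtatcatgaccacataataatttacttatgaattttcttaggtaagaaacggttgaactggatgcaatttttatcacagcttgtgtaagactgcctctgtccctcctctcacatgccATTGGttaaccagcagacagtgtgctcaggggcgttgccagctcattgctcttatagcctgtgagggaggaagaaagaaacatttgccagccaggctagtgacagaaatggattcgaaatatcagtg
AKR1C2: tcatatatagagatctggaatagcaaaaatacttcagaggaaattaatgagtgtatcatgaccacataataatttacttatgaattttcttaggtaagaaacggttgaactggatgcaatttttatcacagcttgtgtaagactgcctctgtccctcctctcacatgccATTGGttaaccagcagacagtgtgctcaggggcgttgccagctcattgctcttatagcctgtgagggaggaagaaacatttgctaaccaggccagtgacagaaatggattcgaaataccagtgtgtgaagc
AKR1C3, upstream start: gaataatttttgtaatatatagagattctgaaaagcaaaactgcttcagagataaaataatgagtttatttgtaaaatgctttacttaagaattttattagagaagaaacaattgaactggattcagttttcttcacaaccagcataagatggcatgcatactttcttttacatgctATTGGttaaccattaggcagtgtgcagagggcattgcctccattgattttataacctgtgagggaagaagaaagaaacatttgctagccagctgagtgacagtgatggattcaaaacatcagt
AKR1C3, downstream start: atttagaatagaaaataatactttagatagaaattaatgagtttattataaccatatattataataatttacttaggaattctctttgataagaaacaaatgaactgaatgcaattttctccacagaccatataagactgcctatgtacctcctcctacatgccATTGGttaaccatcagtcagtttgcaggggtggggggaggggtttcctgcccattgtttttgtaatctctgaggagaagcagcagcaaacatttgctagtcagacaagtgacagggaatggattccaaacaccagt
AKR1C4: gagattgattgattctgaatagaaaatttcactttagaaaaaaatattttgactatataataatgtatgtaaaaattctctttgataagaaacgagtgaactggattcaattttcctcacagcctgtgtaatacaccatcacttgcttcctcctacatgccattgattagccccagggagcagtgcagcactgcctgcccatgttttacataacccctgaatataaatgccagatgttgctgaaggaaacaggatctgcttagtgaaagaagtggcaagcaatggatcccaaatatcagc

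The windows of AKR1C1 and AKR1C2 were identical at 288 of 296 aligned bases, or 97.3%. Those of AKR1C1 and AKR1C3 matched at 75.7% for the upstream start and at 75.0% for the downstream one, and that of AKR1C4 matched AKR1C1 at 62.4%. The letters CCAAT were searched on both strands, and 34.6% of 34796 promoter windows of this length hold them. They were found once on the opposite strand in AKR1C1, AKR1C2 and both AKR1C3 windows, starting at positions -77, -81, -73 and -86, where -1 is the base before the start, and not in AKR1C4. The core of the antioxidant response element, TGACNNNGC, to which NRF2 is known to bind, occurs in 13.3% of all windows and in none (0) of the 5 AKR1C windows. The xenobiotic response element core GCGTG, found in 36.4% of all windows, and the AP-1 site TGANTCA, found in 7.73%, were likewise without a match (0) in these 5. The no-match results say only that these letters are not within these windows.

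The first question was how the family differed after CAPE in each line. AKR1C1, AKR1C2 and AKR1C3 stood 3.10 to 4.09 times higher with CAPE in both lines. AKR1C4, AKR7A2 and AKR7A3 differed by 0.24 log2 units or less in either line. AKR1B10 stood higher with CAPE in HK1 and was level in HK1EBV. Of the 6 genes kept by the filter, 3 were at least 2-fold higher in both lines, where 0.27% of all 15194 genes were, and 0 were 2-fold lower in both, where 0.204% of all genes were. Within HK1EBV 3 of the 6 were at least 2-fold higher (0.691% of all genes) and within HK1 4 of the 6 (0.671% of all genes). The family was picked with these values known, so the shares are only shown side by side. In RNA pooled over a culture, more cells expressing a gene and more RNA per cell cannot be told apart.

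**Figure D1:**
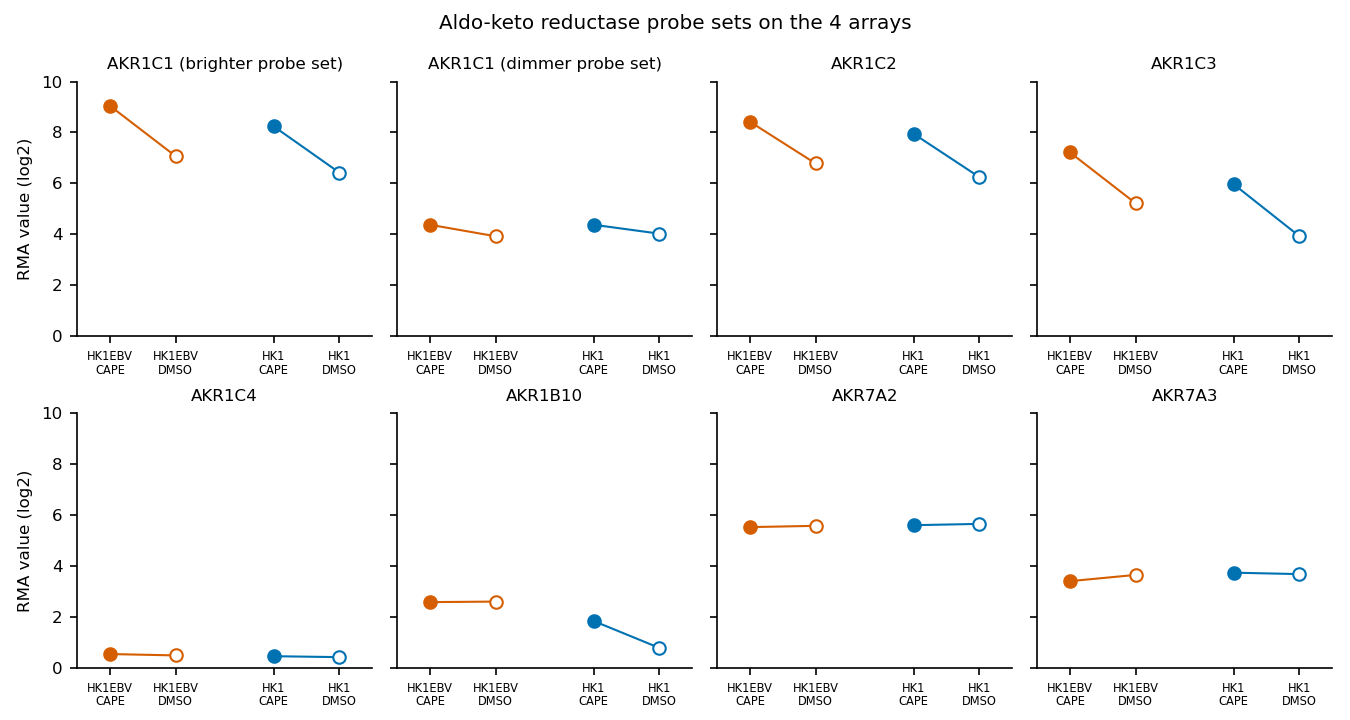
RMA value (log2) of each of the 8 probe sets on the 4 arrays, 1 point an array; filled points are CAPE and open points DMSO, orange HK1EBV and blue HK1, and a line joins the arrays of 1 cell line. The CAPE points of the brighter AKR1C1 probe set, AKR1C2 and AKR1C3 lie 1.63 to 2.03 above their DMSO points, and AKR1C4 stays between 0.42 and 0.54.

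AKR1C1 reduces progesterone to a less active form. Its brighter probe set, the one annotated with the RefSeq transcript, read 9.04 with CAPE and 7.07 with DMSO in HK1EBV, and 8.24 with CAPE and 6.43 with DMSO in HK1. The CAPE differences were 1.97 in HK1EBV and 1.81 in HK1, a mean of 1.89 ± 0.11 (SD, n = 2 lines), or 3.71-fold. Both CAPE arrays lay above both DMSO arrays. The dimmer AKR1C1 probe set, annotated with a single cDNA clone, read 4.38 with CAPE and 3.93 with DMSO in HK1EBV, and 4.38 with CAPE and 4.03 with DMSO in HK1. Its differences were 0.45 and 0.35, the same direction and a smaller size than in the brighter one, and it showed the same value on both CAPE arrays. Taking the mean of both probe sets would bring the AKR1C1 difference down to 1.14.

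AKR1C2 is known for inactivating dihydrotestosterone. It read 8.42 with CAPE and 6.79 with DMSO in HK1EBV, and 7.95 with CAPE and 6.25 with DMSO in HK1. The differences were 1.63 in HK1EBV and 1.69 in HK1, a mean of 1.66 ± 0.04 (SD, n = 2 lines). The arrays with CAPE were again the 2 highest. Transcripts of AKR1C1 and AKR1C2 are nearly identical in sequence, and a probe of one may take up the other's RNA, so how much each contributed is uncertain.

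AKR1C3 makes testosterone from androstenedione and prostaglandin F from other prostaglandins. It read 7.22 with CAPE and 5.23 with DMSO in HK1EBV, and 5.97 with CAPE and 3.93 with DMSO in HK1. The differences were 1.99 in HK1EBV and 2.03 in HK1, a mean of 2.01 ± 0.03 (SD, n = 2 lines), or 4.03-fold. Among all 15194 genes this mean was in place 1 from the top, with AKR1C1 in place 5 and AKR1C2 in place 9. Between the array with the highest value, HK1EBV with CAPE, and the one with the lowest, HK1 with DMSO, AKR1C3 differed by 3.28, or 9.73-fold, against 2.61 for AKR1C1 and 2.17 for AKR1C2.

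AKR1C4 is known as an enzyme of liver, where it acts on steroids and bile acid precursors. It read 0.54 with CAPE and 0.49 with DMSO in HK1EBV, and 0.46 with CAPE and 0.42 with DMSO in HK1. These values lay between percentiles 5.91 and 9.64 of their arrays, under the filter, where a difference may not show. Among 4 liver markers, 3 lay above the filter, the highest of them APOA1 at 2.22, and ALB lay under it with a mean of 0.78.

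AKR1B10, known from the small intestine and from squamous tumours, reduces retinaldehyde and lipid aldehydes. It read 2.58 with CAPE and 2.60 with DMSO in HK1EBV, and 1.84 with CAPE and 0.79 with DMSO in HK1. The CAPE difference was -0.02 in HK1EBV and 1.05, or 2.07-fold, in HK1. Both HK1EBV arrays lay above both HK1 arrays. The HK1 array with DMSO stood at percentile 18.8 of its values, under the level of the filter, so the HK1 difference starts from a dim signal. The HK1EBV difference minus the HK1 difference was -1.07, and 86 of the 15194 genes (0.566%) had one at least as large in size. With 1 array a group this difference was not tested.

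AKR7A2 reduces aflatoxin dialdehyde and succinic semialdehyde, and AKR7A3 is its close relative. AKR7A2 read 5.52 with CAPE and 5.57 with DMSO in HK1EBV, and 5.60 with CAPE and 5.65 with DMSO in HK1, a difference of -0.05 in each line. AKR7A3 read 3.40 with CAPE and 3.65 with DMSO in HK1EBV, and 3.74 with CAPE and 3.68 with DMSO in HK1. Its differences of -0.24 and 0.06 had opposite signs. The 2 AKR7A2 windows in RefSeq, chr1:19312097-19312396 and chr1:19312095-19312394, overlap almost fully and held the same 3 matches to TGACNNNGC. The AKR7A3 window held none (0), and 13.3% of all windows hold these letters.

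**Figure D2:**
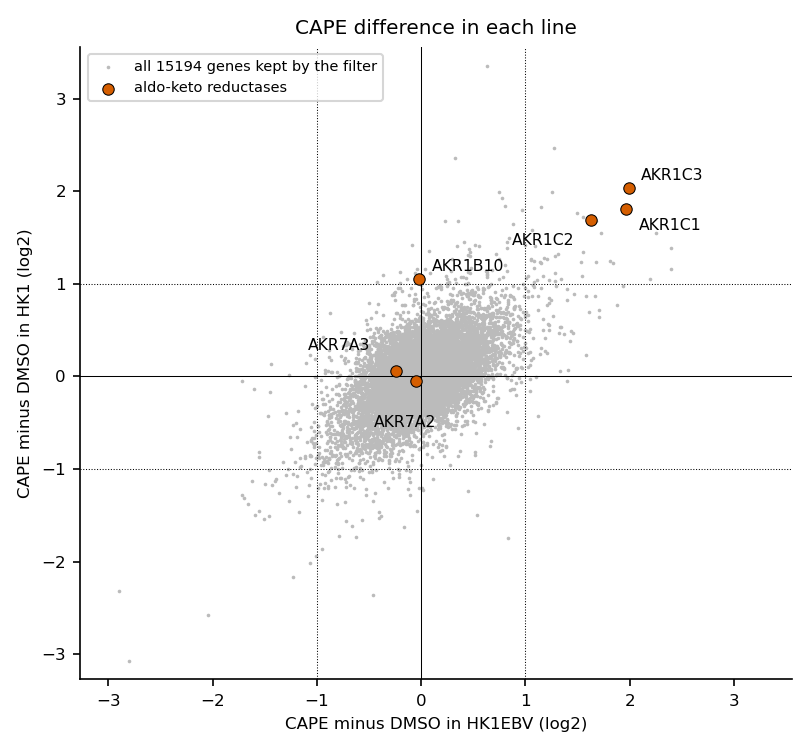
CAPE minus DMSO (log2) in HK1EBV on the x axis and in HK1 on the y axis for the 15194 genes kept by the filter (grey) and the 6 aldo-keto reductases among them (orange); dotted lines mark 2-fold. AKR1C1, AKR1C2 and AKR1C3 lie beyond 2-fold in both lines, AKR1B10 in HK1, and AKR7A2 and AKR7A3 lie near 0.

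Over the 6 genes the median CAPE difference was 0.81 in HK1EBV and 1.37 in HK1, against -0.003 and 0.02 over all genes. In HK1EBV the family thus split into genes that stood far higher with CAPE and genes near 0, with no member kept by the filter between them. In HK1, AKR1B10 lay between them, at 1.05.

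The next question was how HK1EBV differed from HK1. AKR1C3 was higher in HK1EBV, by 1.25 with CAPE and 1.29 with DMSO. Its mean difference was 1.27 ± 0.11 (moderated SE of limma, n = 2 treatments), and it was the 1 member that passed (adjusted p = 0.0258, limma with Benjamini-Hochberg adjustment over 15194 genes). Of the 6 tested, 1 was called higher and 0 lower, where 1.32% of all genes were called higher and 1.58% lower. Of the alternatives, 2 ended this call: keeping the dim genes (limma adjusted p = 0.119) and dropping treatment from the model (limma adjusted p = 0.657), and over all of them the limma adjusted p ran between 0.000201 and 0.657.

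AKR1B10 differed by 0.74 with CAPE and 1.82 with DMSO, a mean of 1.28 ± 0.27 (moderated SE, n = 2 treatments; limma adjusted p = 0.0786). AKR1C1 differed by 0.80 and 0.64, a mean of 0.72 ± 0.11 (limma adjusted p = 0.0517), and AKR1C2 by 0.47 and 0.53, a mean of 0.50 ± 0.11 (limma adjusted p = 0.0848). These 3 did not pass, and each had one sign in both treatments. When 57 genes whose CAPE differences in the 2 lines matched within 1e-06 log2 units (genes of zero residual), AKR7A2 among them, were left out of the fit, AKR1C1, AKR1C2, AKR1C3 and AKR1B10 all passed, at limma adjusted p values of 0.0056, 0.0298, 0.000201 and 0.00314, where 6.26% of all genes were then called higher and 5.34% lower. AKR7A2 differed by -0.08 in each treatment and AKR7A3 by -0.33 with CAPE and -0.03 with DMSO, at limma adjusted p values of 0.744 and 0.474. The dimmer AKR1C1 probe set gave 0.00 with CAPE and -0.10 with DMSO, so it did not share the line difference of the brighter one.

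**Figure D3:**
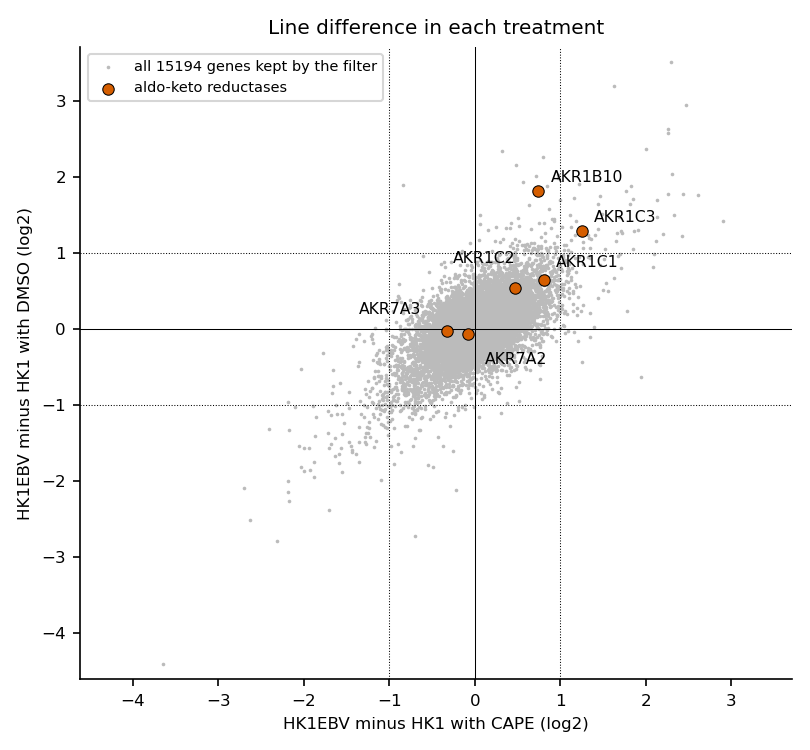
HK1EBV minus HK1 (log2) with CAPE on the x axis and with DMSO on the y axis for the 15194 genes kept by the filter (grey) and the 6 aldo-keto reductases (orange); dotted lines mark 2-fold. AKR1C3 lies at 1.25 and 1.29, AKR1B10 at 0.74 and 1.82, and AKR7A2 and AKR7A3 lie at or below 0 on both axes.

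Across the arrays, AKR1C1, AKR1C2 and AKR1C3 had the same order, from HK1 with DMSO, through HK1EBV with DMSO and HK1 with CAPE, to HK1EBV with CAPE. In AKR1C1 these 4 values were 6.43, 7.07, 8.24 and 9.04. With no replicates, whether neighbours in this order differ beyond the spread of repeat arrays cannot be said. The same order held for 931 of the 15194 genes (6.13%), and for 19 of the 41 genes at least 2-fold higher with CAPE in both lines. The CAPE change of these 3 genes differed between the lines by 0.16, -0.06 and -0.04, where the median size of that difference over all genes was 0.19. AKR1B10 had another order, with HK1EBV DMSO and HK1EBV CAPE at the top.

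Genes with the nearest profile over the 4 arrays were sought by the Euclidean distance between log2 values centred on each gene's mean. For AKR1C1 the nearest other gene was SMIM14, at 0.26, followed by AKR1C2 at 0.33. LURAP1L followed at 0.34, ATP6V0D2 at 0.41, HBP1, a transcriptional repressor gene, at 0.46, and DDIT3, a transcription factor gene of the stress response, at 0.53. For AKR1C2 the nearest were SMIM14 at 0.20 and LURAP1L at 0.25, then AKR1C1 at 0.33, ATP6V0D2 at 0.39, HBP1 at 0.40 and PLPP5 at 0.44. For AKR1C3 the nearest was AKR1C1 at 0.57, followed by WIPI1, an autophagy gene, at 0.60, LURAP1L at 0.67, SMIM14 at 0.72, ATP6V0D2 at 0.81 and HBP1 at 0.81. The distances to AKR1B10 were 1.61 from AKR1C1, 1.48 from AKR1C2 and 1.58 from AKR1C3. With 4 points a profile holds little more than the CAPE difference and the line difference.

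Genes next to the family on the chromosome were read in RefSeq order, 5 measured genes on either side. Around the AKR1C cluster on chromosome 10 no neighbour (0 of 10) was at least 2-fold higher with CAPE in both lines. Of all genes 0.27% were, so a count of 0 is near that share. Their differences ran between -0.34 and 0.53 in HK1EBV and between -0.22 and 1.12 in HK1. The highest in HK1EBV was AKR1C6P, a pseudogene of the cluster, at 0.53 in HK1EBV and 0.41 in HK1, and it may share probes with its relatives. The highest in HK1 was KLF6, a zinc finger transcription factor gene, at -0.05 in HK1EBV and 1.12 in HK1. AKR1E2, another reductase at the edge of the cluster, differed by -0.12 and -0.05, and AKR1C8, between AKR1C3 and AKR1C4, had the value 1.05 on all 4 arrays.

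Beside AKR1B10 on chromosome 7, 10 neighbours differed with CAPE by -0.56 to 0.33 in HK1EBV and by -0.29 to 0.25 in HK1. Their line differences ran between -0.49 and 0.52 with CAPE and between -0.35 and 0.36 with DMSO, against 0.74 and 1.82 for AKR1B10 itself. Beside AKR7A2 and AKR7A3 on chromosome 1, IFFO2 differed by -1.56 in HK1EBV and -0.81 in HK1, and MRTO4, a gene of ribosome assembly, by -0.99 and -0.85. SLC66A1, a lysosomal transporter gene, differed by 0.74 and 0.55. No neighbour there (0 of 10) was at least 2-fold higher in both lines, where 0.27% of all genes were.

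**Figure D4:**
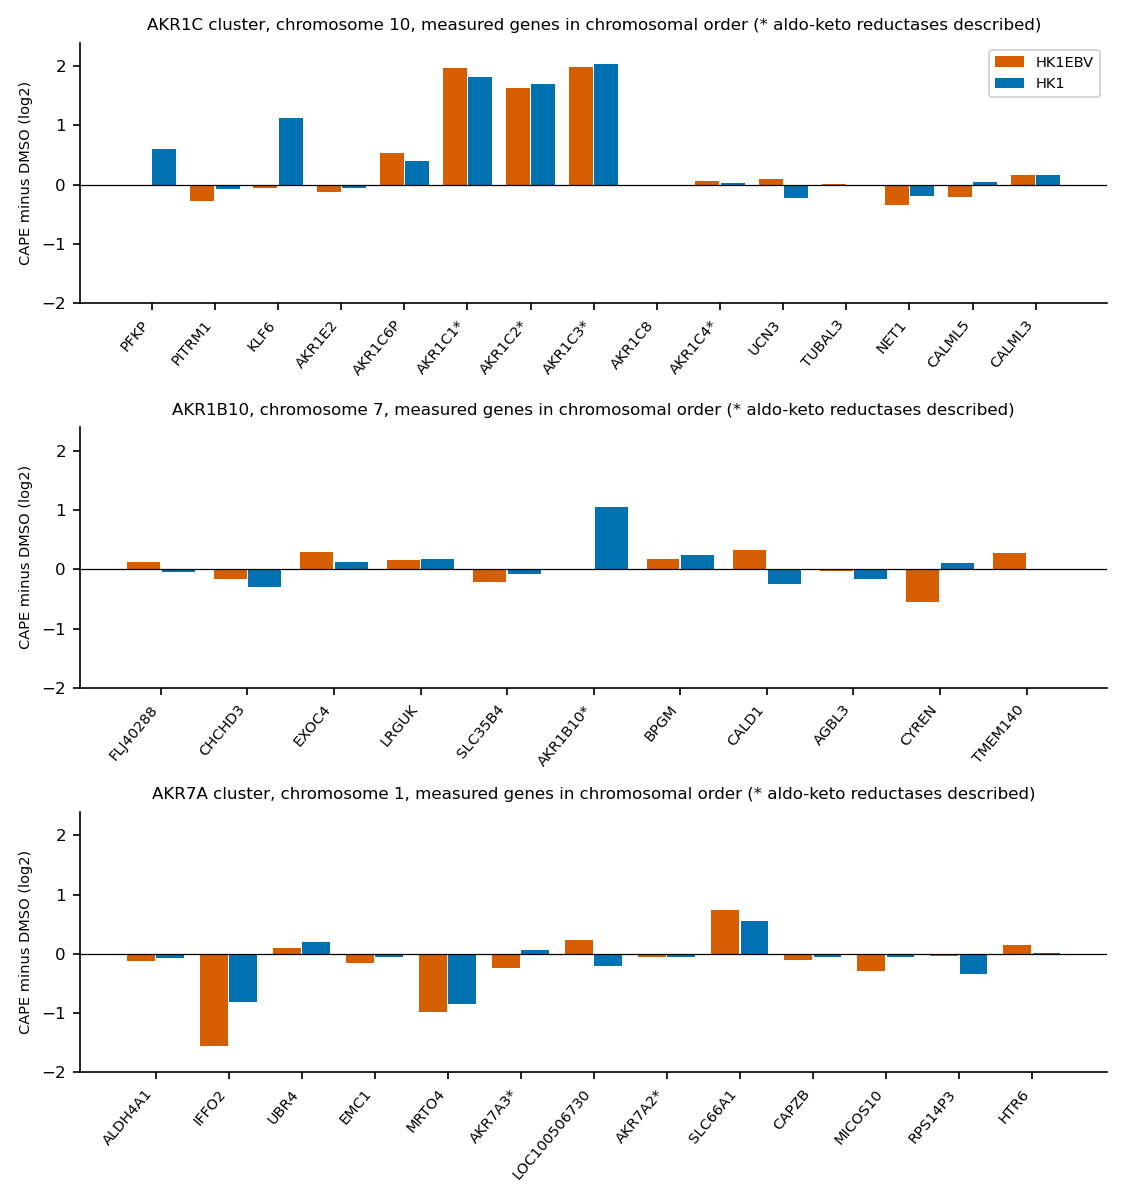
CAPE minus DMSO (log2) of the measured genes around each group of aldo-keto reductases in chromosomal order, with bars from 0 for HK1EBV (orange) and HK1 (blue); asterisks mark the family. On chromosome 10 the bars of AKR1C1, AKR1C2 and AKR1C3 lie between 1.63 and 2.03. None (0) of the neighbours there was at least 2-fold higher in both lines, where 0.27% of all genes were.

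Lists of related genes were read beside the family. They too were chosen with earlier results of these data known, so their counts and the shares of all genes are only shown side by side. For the same reason their p-values are not an independent test. The NRF2 list held the factor, its partners and its known target genes, and 24 of 28 were tested. Its median CAPE difference was 0.39 in HK1EBV and 0.38 in HK1, with 19 genes higher in both lines (32.1% of all genes were) and 4 lower in both (29.5% of all genes were). SQSTM1, the autophagy receptor gene, was the 1 gene at least 2-fold higher in both lines, at 1.53 and 1.24. FTL, the ferritin light chain gene, differed by 1.61 and 0.69, and GCLC, a subunit gene of the enzyme that limits glutathione synthesis, by 1.02 and 0.92. NFE2L2, which encodes NRF2 itself, differed by -0.30 and -0.43 and KEAP1, its inhibitor gene, by 0.26 and 0.15, both named here after their values were seen.

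By limma with Benjamini-Hochberg adjustment 0 of the 24 passed for CAPE, where 0.00658% of all genes passed, with 14 higher and 1 lower at an unadjusted p under 0.05, where 10.2% of all genes were higher and 9.31% lower. Without the genes of zero residual 11 passed as higher and 0 as lower, where 4.07% of all genes were higher and 4.14% lower. Between the lines 1 passed as higher, GCLM, the other subunit gene of glutathione synthesis, by 0.90 (limma adjusted p = 0.0421). A further 1 passed as lower, SLC7A11, the cystine transporter gene, which stood 1.05 lower in HK1EBV than in HK1 (limma adjusted p = 0.0482). Of all genes 1.32% passed as higher and 1.58% as lower. Without the genes of zero residual 3 NRF2 list genes passed as higher and 4 as lower, where 6.26% and 5.34% of all genes did.

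Of 21 other carbonyl reductases and aldehyde dehydrogenases, 18 were tested, and the medians with CAPE were -0.05 in HK1EBV and -0.04 in HK1. ALDH1A3, a retinaldehyde dehydrogenase gene, differed by -2.90 in HK1EBV and -2.31 in HK1, the 1 gene at least 2-fold lower in both. ALDH1B1, a mitochondrial aldehyde dehydrogenase gene, differed by -1.24 and -0.78, and DHRS7, a short-chain reductase gene, by 0.98 and 0.996. By limma 0 of 18 passed for CAPE, with 3 higher and 4 lower at an unadjusted p under 0.05 (10.2% and 9.31% of all genes). Without the genes of zero residual 3 passed as higher and 3 as lower (4.07% and 4.14% of all genes). Between the lines 3 passed as higher in HK1EBV, ALDH2 by 1.80, ALDH1A1 by 1.16 and ALDH3A2 by 0.81 (limma adjusted p = 0.0335, 0.0333 and 0.0482), and 0 as lower, where 1.32% of all genes were higher and 1.58% lower. Without the genes of zero residual 5 passed as higher and 2 as lower (6.26% and 5.34% of all genes).

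Other genes of the superfamily, 4 of 8 tested, were AKR1E2, AKR1C8 and the potassium channel subunit genes KCNAB2 and KCNAB3. Their medians with CAPE were -0.10 in HK1EBV and -0.02 in HK1. AKR1C8 had the same value on all 4 arrays. KCNAB3 showed the largest mean difference in size, with -0.24 and -0.04. By limma 0 of the 4 passed in either comparison, also at an unadjusted p under 0.05. Of all genes 0.00658% passed for CAPE, and between the lines 1.32% passed as higher and 1.58% as lower. At the unadjusted p, 10.2% of all genes were higher and 9.31% lower with CAPE. Between the lines 3503 of 15194 genes reached it in either direction, so a count of 0 among 4 genes says little. Steroid metabolism and receptors (20 of 28 tested) had medians of 0.02 and 0.02, and HSD17B11 differed by 0.38 and 0.75, ESR1 by 0.29 and 0.50 and HSD17B10 by -0.32 and -0.46. Prostaglandin metabolism and receptors (16 of 19 tested) had medians of -0.12 and -0.04, and PTGS1, a cyclooxygenase gene, differed by 0.18 and 0.99, PTGES by -0.96 and -0.17 and PTGES2 by -0.52 and -0.07. Retinoid metabolism (18 of 22 tested) had medians of -0.13 and -0.01, and besides ALDH1A3, DHRS9 differed by 0.06 and 0.90 and RDH10 by 0.45 and 0.46.

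The polyol and glucuronate pathway (9 of 10 tested) had medians of 0.13 and 0.17, and HK2, a hexokinase gene, differed by 0.28 and 1.14, UGDH by 0.68 and 0.65 and KHK by -0.24 and -0.21. None (0) of the genes in these 4 lists passed for CAPE by limma. At an unadjusted p under 0.05, 2 steroid, 1 prostaglandin, 1 retinoid and 2 polyol genes were higher and 1, 1, 4 and 0 lower, where 10.2% of all genes were higher and 9.31% lower. Without the genes of zero residual 1 steroid gene, HSD17B11, and 2 polyol genes, HK2 and UGDH, passed as higher and 1 retinoid gene, ALDH1A3, as lower (limma adjusted p = 0.0332, 0.0378, 0.0116 and 3.42e-05), where 4.07% of all genes were higher and 4.14% lower. Between the lines the retinoid list had 1 higher call, ALDH1A1 as above, and 1 lower, DHRS9, a retinol dehydrogenase gene. DHRS9 stood 1.75 lower in HK1EBV than in HK1 (limma adjusted p = 0.0421). The steroid list had 0 higher calls and 1 lower, HSD17B8, which stood 0.74 lower in HK1EBV than in HK1 (limma adjusted p = 0.0487). The prostaglandin and polyol lists had 0 calls. Of all genes 1.32% were called higher and 1.58% lower. At an unadjusted p under 0.05 by limma, the prostaglandin list had 1 higher and 1 lower, and the polyol list 1 higher and 0 lower. Of all 15194 genes, 3503 had such a p in either direction. Without the genes of zero residual the prostaglandin list had 1 higher and 1 lower call, and the polyol list 1 and 0. The retinoid list then had 1 and 1, and the steroid list 0 and 1. Of all genes 6.26% were then called higher and 5.34% lower.

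**Figure D5:**
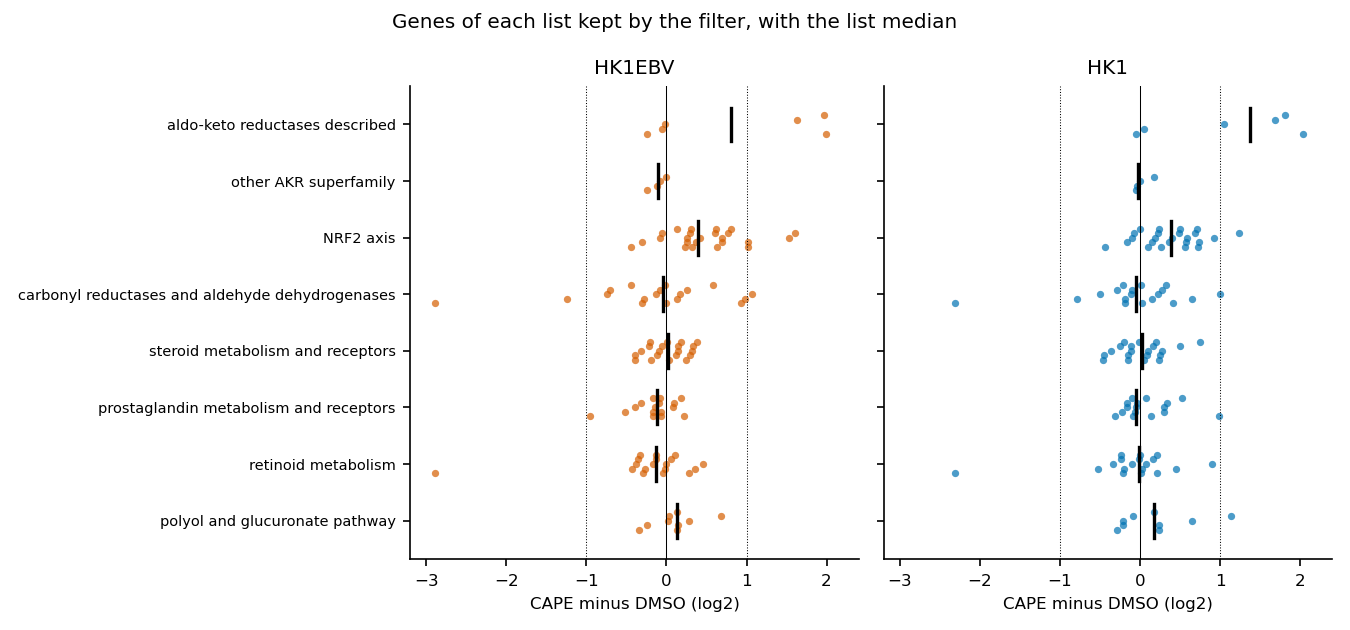
CAPE minus DMSO (log2) in HK1EBV (orange) and HK1 (blue) for the genes of each list kept by the filter, 1 point a gene with a black bar at the list median; dotted lines mark 2-fold. The NRF2 list has medians of 0.39 and 0.38, the family has medians of 0.81 and 1.37, and ALDH1A3 is the point at -2.90 and -2.31.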

How the data were processed

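Biotinylated cDNA for the arrays was made from 250 ng of DNase-treated RNA, per the labels' protocols. The deposited values were made by RMA, per the submitters' processing notes, and were taken as log2. Neither the log base nor the RMA version, a shift or a build is stated in those notes. Median polishing in RMA can give arrays exactly equal steps.

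Probe sets were named through the platform annotation (18612 of 25800 had 1 symbol). The probe set with the highest mean stood for a gene. The line difference and, for other lists, the CAPE difference were tested with limma 3.58.1 in R 4.3.3 (two-sided) in a model of the 4 arrays that held both factors, line and treatment, and left 1 residual degree of freedom, with Benjamini-Hochberg adjustment and a threshold of 0.05. The fit was also run on simulated data with independent noise and no CAPE effect. That setting differs from these arrays, so it does not check the calls made here. Alternatives changed the filter, the scaling, the choice of probe set, the variance prior, the model, the genes of zero residual and the thresholds. Promoters were aligned with Biopython 1.88.

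Members and lists were chosen with earlier results of these data known. Named genes were the members, the 3 genes of each list with the largest mean CAPE difference in size and those 2-fold apart in both lines, 5 measured neighbours on either side and the 5 nearest profiles. List genes that passed between the lines were added after their values were seen. The number of arrays limits the precision of every value.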

Additional observations from a re-analysis of the deposited data

Results flagged for a closer look

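AKR1B10 drew attention because its CAPE difference had opposite signs in the lines, -0.02 in HK1EBV and 1.05 in HK1, which differ by -1.07. With 1 array a group the difference between the lines was not tested, and the HK1EBV value is close to 0. AKR7A3 likewise had opposite signs, -0.24 in HK1EBV and 0.06 in HK1, which differ by -0.30, also not tested.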

How the results depend on the processing

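With 4 arrays and 1 residual degree of freedom, counts of calls depended strongly on the setting, and the cause was not tested. AKR1C1, AKR1C2 and AKR1C3 made up the 3 members at least 2-fold apart in both lines under no filter, a filter at the 50th percentile, both other scalings, the mean of probe sets and fold thresholds of 1.5 and 3. The members called between the lines numbered 1, and 0 with no filter or without treatment as a term, 2 with a trended prior, 3 with a filter at the 50th percentile, with quantile normalization or with a robust prior, and 4 with arrays shifted to one median, without genes of zero residual or at an adjusted p under 0.1. Genes called between the lines numbered 440, and 0 with no filter or without treatment as a term, 1296 with a filter at the 50th percentile, 1526 with arrays shifted, 1324 with quantile normalization, 959 with a robust prior, 1756 without genes of zero residual and 1390 at an adjusted p under 0.1. Genes called for CAPE numbered 1, and 0 with no filter or without cell line as a term, 7 with a trended prior, 379 with a robust prior, 894 with a filter at the 50th percentile, 1006 with arrays shifted, 755 with quantile normalization, 1243 without genes of zero residual and 544 at an adjusted p under 0.1. No member reversed its line difference (0) in any setting tried. The limma adjusted p of AKR1C3 between the lines ran between 0.000201 and 0.657. No array could be left out with a test, since the fit would keep no residual degree of freedom. The labels give no replicate numbers to pair arrays by, and each line was already compared within a treatment, with treatment as a term.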

Other observations

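Repeated values occurred in the family. AKR7A2 had the same CAPE difference of -0.05 in both lines and was 1 of 57 genes kept by the filter whose differences in the lines matched within 1e-06 log2 units. The dimmer AKR1C1 probe set read 4.38 on both CAPE arrays, and AKR1C8 read 1.05 on all 4 arrays.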
